A study of Mus musculus with 6 samples.

Results

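Endothelial cells line blood vessels, and 10 of their marker genes were looked for in RNA from the gonads of mouse embryos: Kdr, Cdh5, Pecam1, Flt1, Tie1, Tek, Emcn, Egfl7, Esam and Cldn5. They were taken by name, as genes known from this cell type. Of these 10 genes, 8 were among the 11736 genes in the tables, and Flt1 and Emcn are not analysed here. The embryos were XY, of the C57BL/6 strain and at stage E11.5, when the gonad has yet to become a testis or an ovary, and all carried the Nr5a1-hCD271 genotype, in which the human surface protein CD271 is tied to the gonadal gene Nr5a1. In 3 libraries the embryos were Cdyl-Het, or heterozygous for a deficiency of the chromatin repressor Cdyl, and in 3 they were Cdyl-KO, or homozygous for it. Gonadal somatic cells were isolated by magnetic sorting for hCD271 before total RNA was extracted. Endothelial cells are not the cells that this sort selects. The form of the Cdyl mutation, and whether a library stands for an embryo, a pool or a litter, are stated in none of the sources used here. The p-values thus measure the spread between libraries, part of which may be technical.

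Vessels grow under a pair of receptor systems. Vascular endothelial growth factors (VEGFs) signal through receptors that include KDR, and angiopoietins signal through TEK with TIE1 as its partner. Endothelial cells hold to each other through VE-cadherin, PECAM1, ESAM and claudin 5, and they secrete EGFL7 into the matrix around them. In the XY gonad, endothelial cells migrate in from the neighbouring mesonephros during testis formation and build the coelomic vessel and the vessels between the cords. Many endothelial genes are activated by ETS transcription factors, which bind DNA around the letters GGAA.

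Promoter windows were available for 5 of the 8 genes, as 7 windows with 3 for Egfl7 (RefSeq, GRCm38.p6; 250 bases before the start site to 50 after it). The windows of the 3 receptor genes and of Cldn5 are shown on the strand of the gene, since they differ in how often they hold the ETS core. Capitals mark each GGAA, or its reverse complement TTCC.
Kdr, chr5:75978406-75978705, minus strand: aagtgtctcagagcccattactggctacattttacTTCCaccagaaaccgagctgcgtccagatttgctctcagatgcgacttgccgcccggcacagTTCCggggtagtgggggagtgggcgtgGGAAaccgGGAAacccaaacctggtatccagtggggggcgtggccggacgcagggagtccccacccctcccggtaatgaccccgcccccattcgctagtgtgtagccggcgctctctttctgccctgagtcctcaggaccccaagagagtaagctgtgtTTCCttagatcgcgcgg
Tie1, chr4:118489800-118490099, minus strand: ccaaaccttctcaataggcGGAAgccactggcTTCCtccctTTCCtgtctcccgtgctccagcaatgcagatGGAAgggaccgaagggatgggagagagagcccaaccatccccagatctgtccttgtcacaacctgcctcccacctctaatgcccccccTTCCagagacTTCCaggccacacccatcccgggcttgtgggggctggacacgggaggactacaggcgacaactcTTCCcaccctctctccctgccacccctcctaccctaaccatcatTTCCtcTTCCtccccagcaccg
Tek, chr4:94739039-94739338, plus strand: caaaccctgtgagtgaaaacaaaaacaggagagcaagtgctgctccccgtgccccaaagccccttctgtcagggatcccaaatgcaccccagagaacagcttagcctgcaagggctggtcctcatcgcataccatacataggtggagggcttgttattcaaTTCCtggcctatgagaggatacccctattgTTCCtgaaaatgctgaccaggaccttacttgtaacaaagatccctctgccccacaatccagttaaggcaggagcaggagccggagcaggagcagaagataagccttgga
Cldn5, chr16:18776597-18776896, plus strand: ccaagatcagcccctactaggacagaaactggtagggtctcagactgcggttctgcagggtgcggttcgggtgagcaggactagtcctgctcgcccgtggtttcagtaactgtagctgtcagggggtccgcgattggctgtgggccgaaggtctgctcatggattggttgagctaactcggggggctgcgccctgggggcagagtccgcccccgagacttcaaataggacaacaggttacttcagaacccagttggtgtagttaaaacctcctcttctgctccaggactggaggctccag
Tie1 held the core at 9 positions, Kdr at 5, Tek at 2 and Cldn5 at 0. Of all 32851 windows in the table, 96.0% held the core at least once and the median was 3 matches. The Tie1 window thus held more matches than the median and the Cldn5 window was among the few with none. The longer form AGGAAG, read on both strands, was in 3 of the 7 windows of the markers and in 35.4% of all windows; CGGAAG was in 1 of the 7, that of Tie1, and in 16.9% of all. Both contain the core. The GATA letters AGATAA were in 1 window, that of Tek, against 11.2% of all windows. No window of the markers (0 of 7) held the FOX letters GTAAACA, the SOX letters ACAATG or the TATA letters TATAAA, which 3.65%, 12.6% and 13.6% of all windows held. The Kdr window held 19 CpG dinucleotides, Cldn5 12, Tie1 7 and Tek 3, against a median of 7. A match is a description of these letters and not a measured binding site.

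The values are RPKM, a read count per kilobase of exon and depth of the library, divided by a scaling factor per library, written as scaled RPKM. Low values came in whole steps that stood for 34.6 to 45.2 M reads per library. With exon lengths of GENCODE M21, the values of Kdr, Cdh5, Tie1, Tek and Esam came out as whole reads in all 6 libraries, with a tolerance of 0.02. Kdr rested on 2416 to 4392 reads, Cdh5 on 612 to 1368, Pecam1 on 362 to 1035 and Tie1 on 264 to 570. Tek rested on 260 to 658 reads, Egfl7 on 390 to 574, Esam on 168 to 422 and Cldn5, the gene with the fewest, on 108 to 176. Of 36 marker values that were whole, 34 were even, so both reads of a pair may have been counted and separate fragments would then be fewer. The gonadal label was matched by Nr5a1, Wt1 and Gata4, whose levels were 66.3 to 93.98 scaled RPKM in every library. The 8 markers lay between 1.28 and 11.52 scaled RPKM. A limit applies to every count given here: all genes in the tables had a Cdyl-KO mean of at least 1 RPKM, while 100 genes had a Cdyl-Het mean under 1. Genes that lay below 1 in Cdyl-KO are therefore not analysed here, whatever their level in Cdyl-Het. All 8 markers had means above this floor in both groups, the lowest being 1.35 RPKM for Tie1 in Cdyl-KO.

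All 8 markers had a lower mean in Cdyl-KO than in Cdyl-Het, and 4 of them passed the test: the receptor genes Kdr and Tek, the junction gene Cdh5 and the secreted factor gene Egfl7 (limma, Benjamini-Hochberg adjusted p under 0.05 over all 11736 genes). The means in Cdyl-KO were 55.3% (Tek) to 76.4% (Cldn5) of those in Cdyl-Het. Across all genes, 2.83% were called lower and 4.67% higher, while among the markers 4 of 8 were called lower and 0 of 8 higher. In 7 of the 8, Cldn5 being the exception, every Cdyl-KO library lay below every Cdyl-Het library, which held for 14.5% of all genes. The median log2 change of the 8 was -0.49, against 0.00 for all genes and -0.03 for the 6424 genes with a mean level within the range of the markers, of which 3.78% were called lower. In bulk RNA, fewer cells of a type and less RNA per cell cannot be told apart. The sort does not select endothelial cells, and how many of them came through it in each library was not tested. The call of Kdr held whichever library was left out, while those of Cdh5, Tek and Egfl7 were each lost in several such fits. In these fits, 1 marker passed without Cdyl-Het replicate 1 or without Cdyl-KO replicate 1, and 2 passed without any 1 of the other 4 libraries. The direction was the same in all of 111 refits of single markers under other settings, but these refits reuse the same 6 libraries. For the 7 markers with separate groups, leaving out a library could hardly reverse it, so this is no added evidence.

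**Figure D1:**
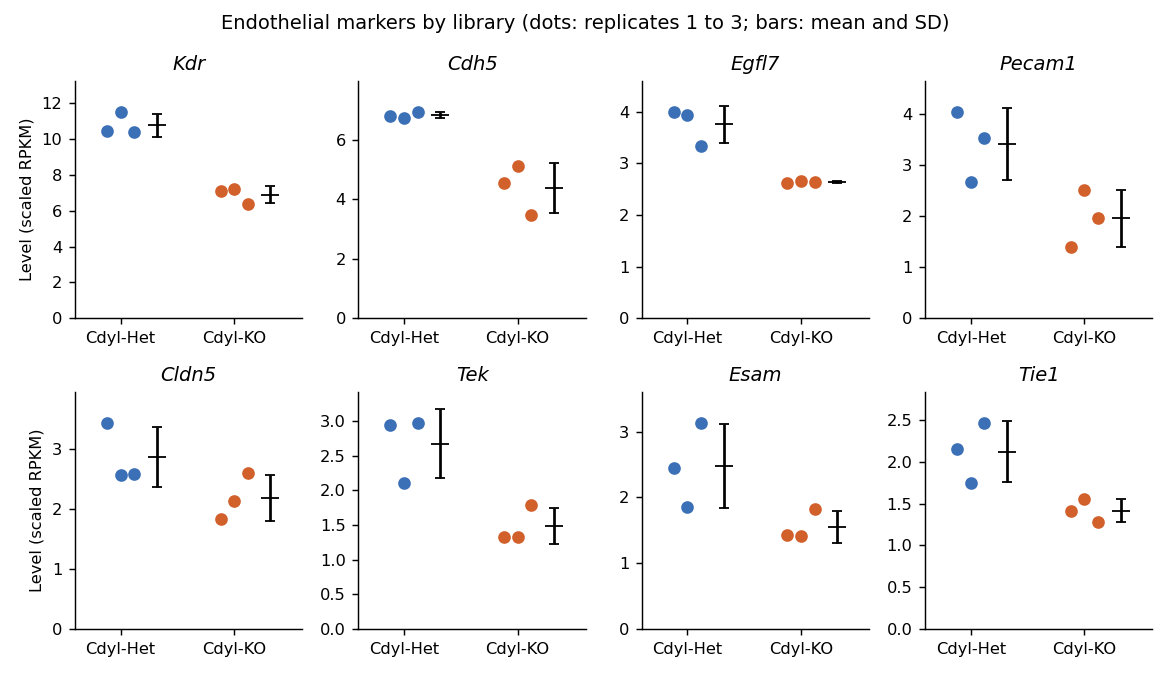
Level of the 8 endothelial markers in each library, in scaled RPKM on a linear axis from 0, with dots for the 3 libraries of each group and bars for the mean and SD. The groups are separate in every panel but that of Cldn5, where the highest Cdyl-KO library, 2.60, lies above the lowest Cdyl-Het library, 2.57.

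Among the receptors, Kdr encodes the main signalling receptor for VEGF-A (VEGFR2; chromosome 5, 75932827 to 75978458, mm10) and had the highest level of the 8. The 3 Cdyl-Het libraries had 10.5, 11.52 and 10.4 scaled RPKM, and the 3 Cdyl-KO libraries had 7.11, 7.22 and 6.38. The groups were 3.15 scaled RPKM apart at their closest, more than the range within either group. The mean fell from 10.8 ± 0.639 to 6.91 ± 0.457 (SD, n = 3 per group; log2 change -0.58, SE 0.07, limma adjusted p = 0.00715). Kdr was the only marker whose call held under all 14 alternative settings, with an adjusted p of 0.00487 to 0.0310.

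Tek encodes the angiopoietin receptor TIE2 (chromosome 4, 94739289 to 94874976). Its level was 2.95, 2.10 and 2.98 scaled RPKM in Cdyl-Het, against 1.33, 1.33 and 1.78 in Cdyl-KO. Cdyl-Het replicate 2 was the lowest of its group and Cdyl-KO replicate 3 the highest of its own, and they did not overlap. The mean fell from 2.68 ± 0.496 to 1.48 ± 0.261 (log2 change -0.56, SE 0.13, limma adjusted p = 0.0472). The call was lost when any 1 library other than Cdyl-Het replicate 2 was left out, with adjusted p of 0.124 and 0.151 without Cdyl-Het replicates 1 and 3 and of 0.128, 0.115 and 0.0595 without Cdyl-KO replicates 1, 2 and 3 (0.0225 to 0.151 over all alternatives).

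Tie1 encodes the partner receptor of TEK, which has no ligand of its own that is well established (chromosome 4, 118471191 to 118490061). It was at 2.16, 1.75 and 2.47 scaled RPKM in Cdyl-Het, against 1.41, 1.55 and 1.28 in Cdyl-KO. The groups were separate by 0.192 scaled RPKM, less than the SD of Cdyl-Het. The means were 2.13 ± 0.364 and 1.42 ± 0.137, so that the threshold was missed (limma adjusted p = 0.101, with a log2 change of -0.37 and an SE of 0.11). It passed only when the library factors were left off (adjusted p = 0.0455; up to 0.251 over the other alternatives). A filter at a mean of 2 leaves Tie1 out.

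Of the junction genes, Cdh5 encodes VE-cadherin, the adhesion molecule of endothelial adherens junctions (chromosome 8, 104101625 to 104144511). Its Cdyl-Het libraries were close together at 6.82, 6.75 and 6.94 scaled RPKM, and its Cdyl-KO libraries were wider apart at 4.54, 5.11 and 3.47. The lowest Cdyl-Het and the highest Cdyl-KO library were 1.64 scaled RPKM apart. The mean fell from 6.84 ± 0.0966 to 4.38 ± 0.832 (SD, n = 3 per group; log2 change -0.56, SE 0.11, limma adjusted p = 0.0296). Without Cdyl-Het replicate 1, 2 or 3 the adjusted p was 0.0691, 0.0874 and 0.105, and without Cdyl-KO replicate 1 it was 0.0725 (0.0179 to 0.105 over all alternatives), while the log2 change stayed between -0.58 and -0.54 in these 4 fits.

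Pecam1 encodes the adhesion molecule PECAM1 (CD31; chromosome 11, 106654217 to 106750628), which in fetal mouse gonads also marks germ cells. It was at 4.04, 2.66 and 3.54 scaled RPKM in Cdyl-Het, against 1.39, 2.52 and 1.97 in Cdyl-KO. Cdyl-Het replicate 2 and Cdyl-KO replicate 2 nearly met, only 0.145 scaled RPKM apart. With 1 added to each value, the log2 change of Pecam1 was -0.58, like that of Kdr. Its Cdyl-KO mean was 57.4% of its Cdyl-Het mean, against 64.1% for Kdr. The SE of 0.17 was the largest of the 8 and the threshold was missed (3.42 ± 0.699 and 1.96 ± 0.561, limma adjusted p = 0.0857). The limma adjusted p was 0.0407 with library factors left off and up to 0.218 over the other alternatives.

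Esam encodes an immunoglobulin-type adhesion molecule of endothelial tight junctions (chromosome 9, 37528078 to 37538319). Its level was 2.45, 1.85 and 3.14 scaled RPKM in Cdyl-Het, against 1.42, 1.41 and 1.83 in Cdyl-KO. The groups were separate by 0.0185 scaled RPKM only, far less than their SDs. The difference missed the threshold (2.48 ± 0.645 and 1.55 ± 0.240, log2 change -0.43, SE 0.15, limma adjusted p = 0.126). Cldn5 encodes claudin 5, a sealing protein of endothelial tight junctions, and is a single-exon gene (chromosome 16, 18776847 to 18778262). It was at 3.44, 2.57 and 2.59 scaled RPKM in Cdyl-Het, against 1.83, 2.14 and 2.60 in Cdyl-KO. The groups overlapped, and Cldn5 had the smallest difference of the 8 (2.87 ± 0.497 and 2.19 ± 0.385, log2 change -0.28, SE 0.13, 95% interval -0.57 to 0.02, limma adjusted p = 0.223). Neither Esam nor Cldn5 passed under any of 14 alternatives.

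Egfl7 encodes a protein that endothelial cells secrete into their matrix, and its locus holds the endothelial microRNA gene Mir126a (chromosome 2, 26580014 to 26593120). It was at 3.99, 3.93 and 3.33 scaled RPKM in Cdyl-Het, against 2.61, 2.66 and 2.64 in Cdyl-KO. The 3 Cdyl-KO libraries were nearly the same, and all lay at least 0.676 scaled RPKM below Cdyl-Het. The mean fell from 3.75 ± 0.364 to 2.64 ± 0.0226 (SD, n = 3 per group; log2 change -0.38, SE 0.08, limma adjusted p = 0.0295). The adjusted p was 0.0771 and 0.0965 without Cdyl-Het replicates 1 and 2, and 0.0881, 0.0758 and 0.0759 without Cdyl-KO replicates 1, 2 and 3 (0.0129 to 0.0965 over all alternatives). Exons of Egfl7 overlap those of Gm20532, Mir126a, Mir126b and Agpat2, so reads may be shared, since no source used here gives the strand setting of the counting.

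**Figure D2:**
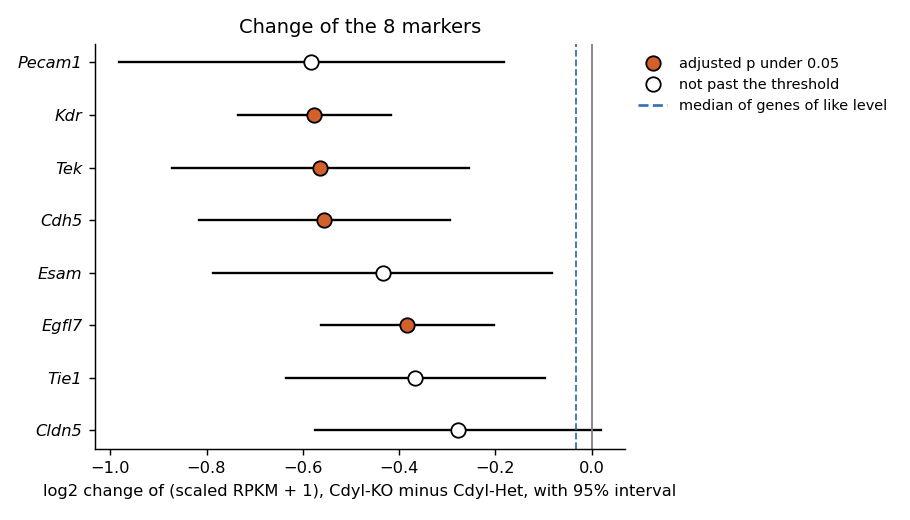
Log2 change of each of the 8 markers (Cdyl-KO minus Cdyl-Het, on the log2 of scaled RPKM + 1), with the 95% interval from limma; filled points passed the threshold. All points lie to the left of the dashed line at -0.03, the median of genes of like level, and the interval of Cldn5 is the only one that reaches 0.

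The order of the levels, which can be compared between genes because RPKM is per length, began alike in both groups. Kdr was highest and was separate from Cdh5, which was separate from Egfl7. In Cdyl-Het, Egfl7, Pecam1, Cldn5, Tek, Esam and Tie1 followed in steps of 0.192 to 0.548 scaled RPKM, and each of these neighbours overlapped the next. In Cdyl-KO, Egfl7 at 2.64 was separate from Cldn5 at 2.19, below which Pecam1, Esam, Tek and Tie1 followed at 1.96 to 1.42 with overlapping libraries. Some genes further apart in the order were separate. In Cdyl-Het, all libraries of Egfl7 were above all those of Tek, Esam and Tie1, and those of Pecam1 and Cldn5 were above those of Tie1. In Cdyl-KO, Egfl7 was separate from all 5 genes below it, and Cldn5 from Tek, Esam and Tie1, although its lowest library and the highest of Esam were both at 1.83.

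Within a group the markers did not move as a block. Over the 6 libraries, Pearson's r of log2 levels between markers was 0.47 to 0.95 (28 pairs, median 0.78), but these values share the difference between the groups. With the mean of each group subtracted, r was -0.98 to 0.90 with a median of 0.10, and 14 pairs were above and 14 below 0. Tek and Esam deviated together (0.90), Kdr and Cdh5 did so less (0.68), and Kdr and Tek deviated in opposite directions (-0.98). In Cdyl-Het replicate 2, 6 of the 8 markers were below the mean of their group, with Esam, Pecam1, Tek and Tie1 lower by 0.27, 0.26, 0.23 and 0.18 on the log2 scale, while Kdr was higher by 0.09. These are descriptions of 6 libraries that share depth and scaling within each library.

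**Figure D3:**
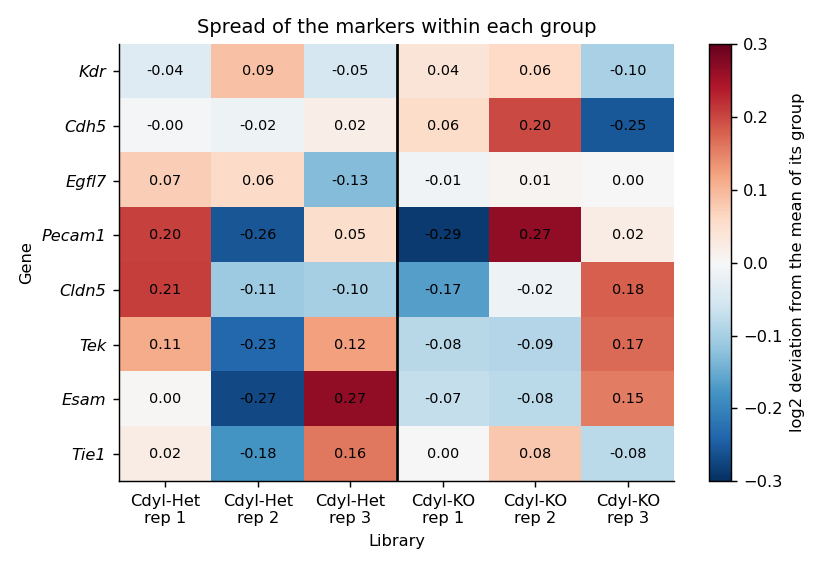
Deviation of each marker from the mean of its group, on the log2 scale, in the 3 Cdyl-Het and 3 Cdyl-KO libraries; red is above and blue below the mean. Cdyl-Het replicate 2 is low for Pecam1, Tek, Esam and Tie1 but not for Kdr, and no Cdyl-KO library is low or high for all markers.

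Other genes known mainly from endothelial cells were read from a longer list. Of 43 named, 22 were in the tables. Among these, 5 fell, 0 rose and 17 missed the threshold, with a median log2 change of -0.37. The log2 change was below 0 for 20 and above 0 for 2, Ramp2 and Unc5b. In 9 of the 22, every Cdyl-KO library lay below every Cdyl-Het library, which held for 14.5% of all genes. In Unc5b, which did not pass, every Cdyl-KO library lay above (log2 change 0.24, limma adjusted p = 0.0977). Across all genes, 2.83% were called lower and 4.67% higher, and these shares are the background for every list below. Their summed level was 58.4 to 70.8 scaled RPKM in Cdyl-Het and 48.2 to 55.2 in Cdyl-KO, with no overlap. Rasip1, a regulator of small GTPases needed for vessel lumens, had a mean of 4.11 ± 0.124 scaled RPKM in Cdyl-Het and fell to 2.27 ± 0.207 (log2 change -0.65, SE 0.07, limma adjusted p = 0.00628; 0.00371 to 0.0344 over all alternatives). Adgrf5, an adhesion G protein-coupled receptor, fell from 4.47 ± 0.509 to 2.49 ± 0.236 (adjusted p = 0.0114), the apelin receptor gene Aplnr from 3.32 ± 0.383 to 1.96 ± 0.191 (0.0195) and the tetraspanin gene Tspan18 from 4.07 ± 0.159 to 2.55 ± 0.371 (0.0198). Eng, the TGF-beta co-receptor endoglin, was the other member that fell, by 0.62 on the log2 scale (limma adjusted p = 0.0351). Other defining members did not pass: Ecscr, a modulator of endothelial migration, was at 2.74 ± 0.848 and 1.58 ± 0.265, and Plvap, a protein of endothelial diaphragms, at 5.84 ± 0.904 and 5.02 ± 0.665. Ramp2, a subunit of the adrenomedullin receptor, was at 7.61 ± 0.197 and 7.96 ± 0.694, and Acvrl1, an endothelial BMP receptor, at 3.32 ± 0.577 and 3.29 ± 0.469, so these members of the list had levels in Cdyl-KO close to those in Cdyl-Het. The count of 5 dropped to 2 and 1 when replicates 2 and 3 of Cdyl-Het were left out in turn, and to 2 and 3 when replicates 1 and 3 of Cdyl-KO were. Adgrf5 had an adjusted p of 0.0560 without Cdyl-Het replicate 3, and the highest adjusted p of Aplnr, Tspan18 and Eng over all alternatives were 0.0616, 0.0806 and 0.121. Exons of Rasip1 overlap those of Izumo1, Gm45437 and A030001D20Rik, and exons of Eng those of Fpgs. Exons of Ramp2 overlap those of Vps25 on the same strand, and exons of Acvrl1 those of Gm16031.

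Among transcription factors of endothelial cells, 4 of 15 listed genes in the tables fell, 0 rose and 11 did not pass (23 named, median log2 change -0.24). Across all genes, 2.83% were called lower and 4.67% higher. The log2 change was below 0 for 12 and above 0 for 3. In 7 of the 15, every Cdyl-KO library lay below every Cdyl-Het library, which held for 14.5% of all genes, and in 2 above. The summed level of this list overlapped between the groups, at 110.6 to 121.2 scaled RPKM in Cdyl-Het and 114.8 to 146.8 in Cdyl-KO. Klf4 and Klf2 had the highest levels in this sum. Mef2c, a MADS-box factor used in endothelial, muscle and neural cells, had a mean of 2.83 ± 0.229 scaled RPKM in Cdyl-Het and fell to 1.36 ± 0.107 (log2 change -0.70, SE 0.09, limma adjusted p = 0.00849; 0.00556 to 0.0423 over all alternatives). Epas1, the hypoxia-inducible factor HIF-2 alpha, fell from 4.51 ± 0.354 to 2.97 ± 0.283 (adjusted p = 0.0192). The ETS factor genes Ets1 and Elk3 fell from 10.2 ± 1.01 to 7.27 ± 0.573 and from 7.66 ± 0.487 to 5.48 ± 0.483 (adjusted p = 0.0261 and 0.0222). Fli1, Ets2 and Etv2, which also encode ETS factors, did not pass: Fli1 was at 3.01 ± 0.450 and 2.64 ± 0.265, Ets2 at 7.35 ± 0.461 and 6.25 ± 0.509, and Etv2 at 2.17 ± 0.519 and 1.39 ± 0.529. Klf2 and Klf4, zinc finger factors that endothelial cells use but that are widely expressed, lay the other way without passing, at 20.6 ± 2.71 and 29.8 ± 4.55 and at 36.7 ± 5.13 and 56.6 ± 11.7. For both genes every Cdyl-KO library lay above every Cdyl-Het library. Without Cdyl-KO replicate 2, 2 genes of this list were called higher. The count of 4 dropped to 2 and 1 when replicates 2 and 3 of Cdyl-Het were left out in turn, and to 1, 2 and 2 when replicates 1, 2 and 3 of Cdyl-KO were. The highest adjusted p over all alternatives were 0.0742 for Epas1, 0.0837 for Ets1 and 0.0832 for Elk3. Exons of Elk3 overlap those of Cdk17.

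The ligands of these receptors were made at levels that did not pass the test. Vegfa, the main ligand of KDR, was at 40.7 ± 1.13 scaled RPKM in Cdyl-Het and 42.1 ± 2.27 in Cdyl-KO (SD, n = 3 per group), and Vegfb, a ligand of FLT1, at 16.4 ± 0.389 and 17.1 ± 0.671. Angpt1, the activating ligand of TEK, was at 1.305 ± 0.415 and 1.501 ± 0.206, and Angpt2, its context-dependent antagonist, at 2.97 ± 0.538 and 2.16 ± 0.156 (limma adjusted p = 0.133). The list read here holds ligands, co-receptors and transducers. In 3 of its 11 genes in the tables, Angpt2 included, every Cdyl-KO library lay below every Cdyl-Het library. That held for 14.5% of all genes. Of these 11 (16 named, median log2 change -0.02), 1 fell and 0 rose. That gene was Nrp2, a co-receptor for VEGF-C and semaphorins, which fell from 2.90 ± 0.230 to 1.64 ± 0.103 (log2 change -0.56, limma adjusted p = 0.0128; 0.00908 to 0.0544 over all alternatives, the highest without Cdyl-Het replicate 3). The count of 1 was 0 without that library and 2 without Cdyl-Het replicate 1. Nrp1, the co-receptor for VEGF-A, was at 5.80 ± 0.392 and 5.24 ± 0.308 and did not pass. With the library factors left off, 4 genes of this list were lower, where the median of all genes is itself -0.12.

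**Figure D4:**
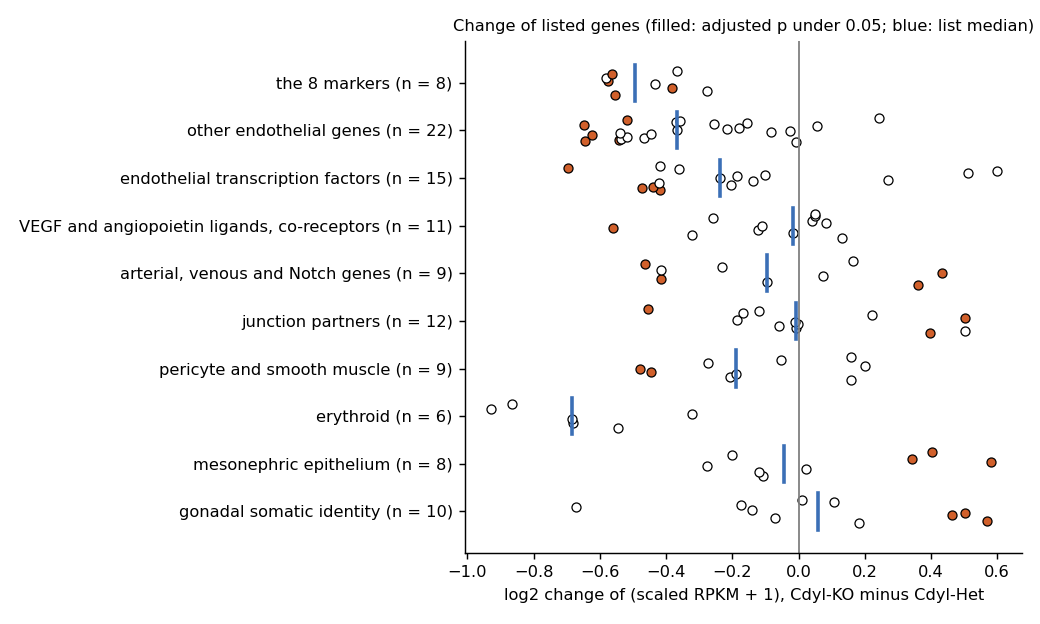
Log2 change of each listed gene (Cdyl-KO minus Cdyl-Het, on the log2 of scaled RPKM + 1), by list; filled points passed the threshold and blue lines mark list medians. The 3 endothelial lists have medians of -0.49, -0.37 and -0.24, and the list of ligands, co-receptors and transducers one of -0.02.

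Markers of other cells that a gonadal preparation can hold were read beside the endothelial genes, and their part in the result was not tested. The summed level of the 8 markers was 36.3, 33.1 and 35.4 scaled RPKM in Cdyl-Het, against 21.7, 23.9 and 22.0 in Cdyl-KO, so the groups were separate. Of 9 listed genes of pericytes and smooth muscle (12 named), which coat vessels, 2 fell and 0 rose, and the summed level was 43.99 to 49.6 in Cdyl-Het and 39.1 to 47.7 in Cdyl-KO, where the groups overlapped. The 2 were Myh11, smooth muscle myosin, from 6.02 ± 0.381 to 4.04 ± 0.415 (SD, n = 3 per group; limma adjusted p = 0.0171), and Mcam, an adhesion molecule of pericytes that endothelial cells also carry, from 4.90 ± 0.0782 to 3.34 ± 0.454 (limma adjusted p = 0.0264). Their highest adjusted p over all alternatives were 0.0729 (without Cdyl-Het replicate 3) and 0.0972 (without Cdyl-Het replicate 3), and the count of 2 dropped to 1 when replicate 1 or 2 of Cdyl-Het or replicate 1 of Cdyl-KO was left out, and to 0 when replicate 3 of Cdyl-Het or replicate 2 of Cdyl-KO was. Pdgfrb, Rgs5 and Cspg4, the defining pericyte genes, did not pass (8.94 ± 0.563 and 7.23 ± 0.620, 4.28 ± 0.521 and 4.11 ± 0.831, and 2.71 ± 0.341 and 2.21 ± 0.0809). Of the 9 genes, 6 had a log2 change below 0 and 3 above, with a median of -0.19. In 4 of them, Pdgfrb and Cspg4 included, every Cdyl-KO library lay below every Cdyl-Het library, and in 1 above. The former held for 14.5% of all genes.

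Blood cells are carried in vessels, and the globin genes varied widely within both groups. The 6 globin genes in the tables, of 13 erythroid genes named, had summed levels of 182.9, 260.9 and 51.5 scaled RPKM in Cdyl-Het, and the Cdyl-KO libraries had 55.1, 59.5 and 161.8. Cdyl-Het replicate 3 was thus as low as Cdyl-KO replicates 1 and 2, and Cdyl-KO replicate 3 was near Cdyl-Het replicate 1. Hba-a1, Hba-a2 and Hba-x, which encode alpha-type globins, had log2 changes of -0.55, -0.68 and -0.69 and none of the 6 genes passed (limma; 0 of 6 at the adjusted threshold, 1 of 6 at an unadjusted p under 0.05, which 25.4% of all genes had). That 1 was Hbb-bt, a beta-type globin gene at 3.83 ± 1.64 and 1.49 ± 0.669 scaled RPKM, whose groups did not overlap (limma adjusted p = 0.101). Whether the summed level of the 8 endothelial markers, given above for each library, varied with the globin sum was not tested.

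Of 14 leukocyte genes named, 2 were in the tables, Fcer1g and Cd68, summing to 3.46 to 4.396 scaled RPKM in Cdyl-Het and 3.21 to 5.13 in Cdyl-KO. Of 12 germ cell genes, 3 were in the tables (Kit, Nanos3 and Ifitm3), summing to 6.64 to 9.51 and 6.31 to 7.70. None of these 5 genes passed the test (limma; 0 of 5 also at an unadjusted p under 0.05, against 25.4% of all genes, so that a count of 0 among so few genes says little), and the germ cell genes Pou5f1, Dppa3 and Ddx4 are not analysed here. Among 8 of 10 genes of the mesonephric epithelium, 3 rose and 0 fell: Krt18, Pax8 and Krt8, with log2 changes of 0.58, 0.40 and 0.34 (limma adjusted p = 0.0222, 0.0227 and 0.0243). Both keratins are also made by the coelomic epithelium. The summed level of this list was 49.5 to 59.2 scaled RPKM in Cdyl-Het and 64.9 to 71.7 in Cdyl-KO, with no overlap. Pax2, Cdh1 and Epcam, other genes of this list, did not pass. They were at 2.51 ± 0.634 and 2.05 ± 0.486, 2.37 ± 0.560 and 2.14 ± 0.575, and 4.51 ± 1.004 and 4.57 ± 0.877 scaled RPKM (SD, n = 3 per group). The count of 3 dropped to 2 without Cdyl-Het replicate 1, to 1 without Cdyl-KO replicate 1 and to 0 without any 1 of the other 4 libraries. Of the neural crest list, Ngfr and Hand2 were in the tables (2 of 10). Ngfr, the mouse gene for CD271, was at 16.1 ± 1.27 and 13.0 ± 0.960 and Hand2 at 3.85 ± 0.209 and 3.38 ± 0.344, and neither passed (limma adjusted p = 0.0648 and 0.280). Their summed level was 19.2 to 21.2 in Cdyl-Het and 15.3 to 17.7 in Cdyl-KO, again with no overlap. The summed level of the 10 gonadal somatic genes in the tables (12 named) was 363.4 to 415.1 scaled RPKM in Cdyl-Het and 392.5 to 430.9 in Cdyl-KO, with Nr5a1 at 85.8 ± 7.76 and 77.7 ± 7.31. In this list 3 genes rose, the early gonadal factor genes Nr0b1, Emx2 and Lhx9 (limma adjusted p = 0.00907, 0.0129 and 0.0273), and 0 fell. Thus the summed endothelial level was lower in every Cdyl-KO library while the summed gonadal level overlapped between the groups. Separate sums were not particular to the endothelial genes, since the mesonephric list (higher in Cdyl-KO) and the neural crest list (lower) also had them.

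**Figure D5:**
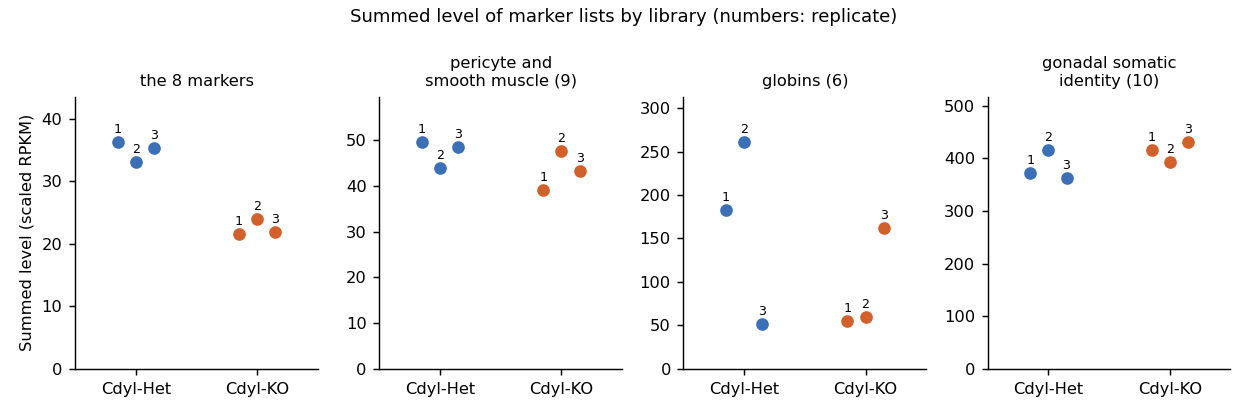
Summed level of 4 marker lists in each library, in scaled RPKM on linear axes from 0, with the replicate number beside each dot. The 8 endothelial markers are at 33.1 to 36.3 in Cdyl-Het and 21.7 to 23.9 in Cdyl-KO. The other 3 lists shown overlap between the groups, and the globins range from 51.5 to 260.9. Some lists not shown, such as the mesonephric and neural crest lists, also had separate sums.

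The genes whose levels over the 6 libraries were most like the mean profile of the 8 markers, by Pearson's r of log2 values, were Echdc2, Git2, Chst2, Celsr1, Nceh1, Cped1, Zbtb20 and Ptprm, with r of 0.998 to 0.989 in this order. None of these 8 is in a list used here. Their own differences were mostly small, with log2 changes of -0.16 to -0.45, and Cped1 and Ptprm, a receptor-type phosphatase, fell (limma adjusted p = 0.0356 and 0.0392). Among listed genes, the highest values were those of Adgrf5 (0.98), Notch1 (0.97) and Nrp2 (0.97). The likeness comes from 6 libraries in 2 groups, so a gene with separate groups and little spread ranks high.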

How the data were processed

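Total RNA of hCD271-sorted gonadal cells was sequenced in 3 Cdyl-Het and 3 Cdyl-KO libraries made with a stranded total RNA kit for very small inputs, per the labels' protocols. Each library has its own deposited list of 11736 gene symbols with a number. The RPKM values were made by the authors from mapped reads, with STAR, Subread's featureCounts 1.6.4 and mm10 named in the submitters' processing notes. No header gives a unit, and RPKM was inferred: sums lay between 191953 and 209917, and 86.2% to 87.8% of low values of short single-exon genes were whole read steps (tolerance 0.02, up to 200 reads). Annotation, strand setting and filter were not given in the sources used here. Values were divided by a trimmed mean of log ratios against Cdyl-Het replicate 1 (30% of ratios and 5% of levels trimmed at each end). The log2 of scaled RPKM plus 1 was fitted with limma 3.58.1 in R 4.3.3, with a group term and a mean-variance trend; Benjamini-Hochberg adjustment ran over every gene, with a threshold of 0.05. The +1 understates changes of low genes. The procedure was tested on simulated data. Alternatives were no scaling, another scaling, other pseudocounts, a filter, no trend, a replicate block and leaving out each library; another reference library was added after seeing the data. The markers, lists and alternatives were chosen with earlier results of these data known. Genes named are all markers, and in each other list those called with the smallest p (up to 4), its first members and others of interest chosen after their values were seen; some genes taken by this rule are left out. Positions are those of GENCODE M21 (GRCm38, that is mm10), where 11539 symbols matched 1 gene. A result of the junction gene list is not reported here.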

Additional observations from a re-analysis of the deposited data

How the results depend on the processing

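The count of genes called was 880, and it was 1863 on the deposited values without scaling, where the median log2 change of all genes was -0.12 and 305 genes were higher and 1558 lower, against 548 and 332 after scaling. Leaving out 1 library gave 253 to 647 genes and 1 to 2 markers called lower, against 4 markers with all libraries. With replicate number as a block, 337 genes and 1 marker (Kdr) were called; the deviations of same-numbered libraries correlated at -0.05, -0.27 and -0.05, no library correlated best with its own number, and the numbers were not taken as pairs. The cause of these changes was not tested. Under the other settings 4 markers were called, or 6 without scaling, and 0 markers were called higher under any setting. All 8 markers kept their negative sign, in refits of the same libraries. The pseudocount mattered for size: the median log2 change of the 8 was -0.49 with 1, -0.56 with 0.5 and -0.63 with 0.1. Cldn5 had the fewest reads of the 8, at 108 to 176, and the effect of depth on its result was not tested.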

Other observations

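Genes of arteries, veins and Notch signalling moved in both directions. Of 9 in the tables (14 named), 2 fell, 2 rose and 5 did not pass, with a median log2 change of -0.09. Their summed level was 94.4 to 98.2 scaled RPKM in Cdyl-Het and 99.2 to 102.8 in Cdyl-KO, with no overlap. Notch1, a receptor active in arterial cells, fell from a mean of 2.38 ± 0.185 scaled RPKM to 1.45 ± 0.228 (SD, n = 3 per group; limma adjusted p = 0.0398) and Efnb2, the arterial ephrin, from 11.8 ± 1.31 to 8.60 ± 0.0837 (limma adjusted p = 0.0236). Hey1, a Notch target, rose from 7.73 ± 0.367 to 10.8 ± 0.429 and was called under all 14 alternatives (limma adjusted p = 0.00937), and the chemokine gene Cxcl12 rose from 8.40 ± 0.525 to 11.1 ± 0.211 (limma adjusted p = 0.0162). Jag1 and Heyl, a ligand and a target of Notch, did not pass (3.78 ± 0.492 and 3.06 ± 0.255; 2.21 ± 0.407 and 1.41 ± 0.230), nor did the venous genes Ephb4 and Nr2f2 (24.3 ± 1.19 and 25.6 ± 0.370; 32.2 ± 1.45 and 36.1 ± 1.80). The highest adjusted p over all alternatives were 0.122 for Notch1, 0.0716 for Efnb2 and 0.0650 for Cxcl12. Without a single library the number that fell was 0 or 1 and, apart from Cdyl-Het replicate 1, the number that rose was 1.

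Several cytoplasmic partners of VE-cadherin and claudins had far higher levels than the markers. Ctnna1 and Ctnnb1, alpha- and beta-catenin, were at 88.5 ± 5.32 and 88.3 ± 2.70 and at 93.8 ± 5.61 and 93.0 ± 1.604 scaled RPKM in Cdyl-Het and Cdyl-KO (SD, n = 3 per group). Ctnnd1, p120-catenin, was at 23.6 ± 2.28 and 20.5 ± 0.262 and did not pass. F11r and Cgn, other genes of the junction list, rose from 22.0 ± 2.64 to 31.4 ± 0.9996 and from 16.4 ± 1.91 to 21.8 ± 0.649 (limma adjusted p = 0.0186 and 0.0334). Their highest adjusted p over all alternatives were 0.0685 and 0.1004, and with the library factors left off Cgn had 0.0597.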
